A study of Mus musculus with 4 samples.

Results

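Proteasome genes were examined in RNA from the lumbar spinal cord of the G93A mouse model of amyotrophic lateral sclerosis (ALS) and of wild type (WT) mice. The members are the gene names of the deposited table that consist of Psm, one of the letters a to g, and a number, which gave 48 names out of 18674. They include the inducible subunits Psmb8, Psmb9 and Psmb10 and the PA28 activator genes Psme1 and Psme2, which were compared with the other 43 members. RNA was sequenced from 4 libraries, 1 for each combination of genotype (WT or G93A) and treatment, which was SD (spermidine) or PBS as the vehicle. Male mice were given SD or PBS 4 times a week for 30 days and were killed at 100 days of age. The G93A mice, of the H1 high-expresser strain, carry a mutant human SOD1 transgene under the human SOD1 promoter, which acts in most cell types. Males of this strain were bred with females of a similar background (B6/SJLF1). The number of animals behind a library is not stated. With 1 library per condition there is no replicate spread, so that no p-value is given and a difference between libraries compares those libraries only.

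The 26S proteasome degrades proteins that carry ubiquitin chains. Its 20S core is a barrel of alpha subunits (Psma genes) around beta subunits (Psmb genes), of which Psmb5, Psmb6 and Psmb7 cut peptide bonds. Its 19S cap recognises and unfolds substrates through ATPases (Psmc genes) and non-ATPase subunits (among the Psmd genes). Under interferon, Psmb8, Psmb9 and Psmb10 replace Psmb5, Psmb6 and Psmb7 in newly built cores, called immunoproteasomes, and PA28 (Psme1 with Psme2) caps them. In the central nervous system, microglia are known for inducible subunits, and misfolded SOD1 is known as a proteasome substrate.

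The genes of the inducible pair Psmb8 and Psmb9 lie next to each other in the major histocompatibility complex. On GRCm38.p6, Psmb9 lies at chr17:34182030-34187330 and Psmb8 at chr17:34198195-34201454, with Tap1, a subunit of the peptide transporter of antigen presentation, between them at chr17:34187556-34197225. Psme1 (chr14:55578494-55581527) and Psme2 (chr14:55587440-55591101) are neighbours as well, whereas Psmb10 lies alone at chr8:105935728-105938392. RefSeq promoter windows, from 250 bases before to 50 after a gene's start, were found for 40 of the 48 members and were searched on both strands for letters of an interferon-stimulated response element (GAAA, any 2 bases, GAAA; called the ISRE), a gamma-activated sequence (TTCNNNGAA) and an antioxidant response element (TGACNNNGC). Psmb7 had no such window and was not searched. Among the other inducible, PA28 and matching constitutive catalytic genes, 4 had a match in their windows. The matches are given here in 30 bases on the gene's strand, with the matched letters in capitals. They are shown because Psmb8 and its constitutive counterpart Psmb5 hold different motifs. Psme1 and Psmb6 are the other genes of these groups with a match. None was found in the windows of Psmb10, Psme2 or Psmb9, the counterpart of Psmb6.

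Psmb8 (TTCNNNGAA, first base at -97 from the gene's start, chr17:34198088-34198117, plus strand): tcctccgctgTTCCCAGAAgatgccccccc

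Psme1 (reverse complement of the ISRE, first base at 10 after the start, chr14:55578493-55578522, plus strand): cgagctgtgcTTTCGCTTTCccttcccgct

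Psmb5 (TGACNNNGC, first base at -47, chr14:54618023-54618052, minus strand): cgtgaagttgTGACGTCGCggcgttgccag

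Psmb6 (TGACNNNGC, first base at -9, chr11:70525338-70525367, plus strand): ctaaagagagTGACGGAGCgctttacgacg

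Such matches are common. Over the 32817 windows of all genes, the ISRE was found in 3.43%, TTCNNNGAA in 8.29% and TGACNNNGC in 12.4%. Over the 40 member genes they were found in 5, 3 and 6. Psmb8 was joined by Psmd2 and Psmg1 for TTCNNNGAA, and Psme1 by Psmb3, Psmd4, Psmd9 and Psmg4 for the ISRE. A match is a description of the letters and not of a bound site. In GENCODE M21 the 250 bases before the Psmb8 start lie within an annotated Psmb8 exon, and those before the Psmb9 start within an annotated Psmb9 exon, so that both starts depend on the transcript chosen. The same holds for Psme1 and Psmb5, with annotated exons before the start used. It also holds for Psmb6, whose match lies inside the RefSeq gene span that begins at chr11:70525324. Positions given with the sequences count from the start of the window used.

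Values are RPKM (reads scaled to transcript length and library size), and all levels and folds below are on that scale with no pseudocount. Sets of 4 values without labels follow the order WT vehicle, SD-treated WT, G93A vehicle, SD-treated G93A. Over the libraries 45 of the 48 members averaged 1 RPKM or more, and the median member had a mean of 32.0 RPKM against 4.43 RPKM over all names. The table does not give its depth. If the commonest low value is taken as 1 read pair, the depth was between 36800000 and 38600000 read pairs per library, and read pairs given below are estimates on that basis. A gene is called higher or lower where its fold is at least 1.5. Genes of cell types found in the cord were looked up, which does not check its lumbar level. The motor neuron gene Chat was detected at 9.83 RPKM in WT vehicle and at 6.55 RPKM in the G93A vehicle library, and the oligodendrocyte gene Mbp at 4669 and 3714 RPKM.

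**Figure D1:**
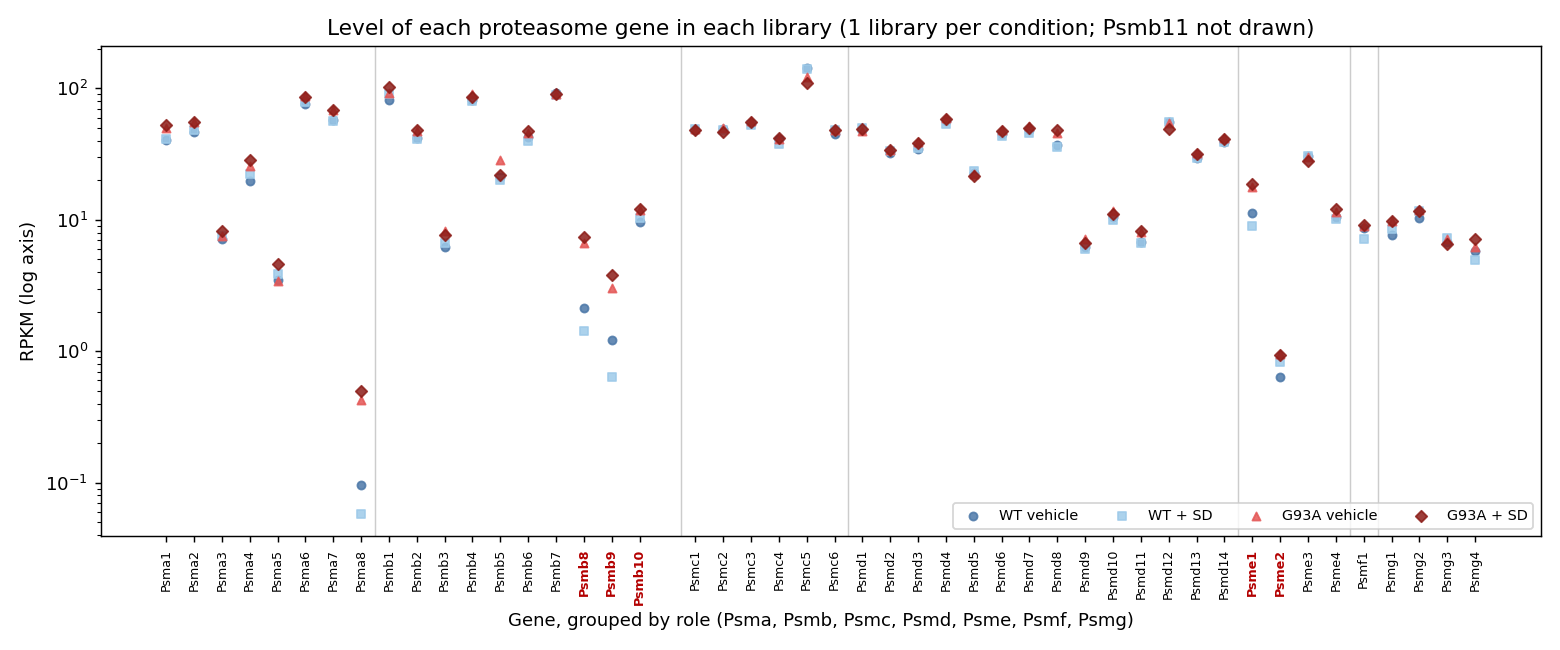
RPKM (log axis) of 47 proteasome genes in the 4 libraries, 1 point per library, grouped by role; the inducible and PA28 genes are in bold and Psmb11, listed at 0 in WT + SD, is not drawn. Points of most genes lie on top of each other, while Psmb8, Psmb9 and Psma8 are separated by genotype.

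Psmb8 and Psmb9 were higher in both G93A libraries than in both WT libraries, and Psmb10 was near its WT level. Psmb8, which takes the place of Psmb5, had 2.12 RPKM in WT vehicle and 1.43 in WT + SD, against 6.72 in G93A vehicle and 7.46 with SD. Its level in G93A was 3.16-fold that in WT between the vehicle libraries and 5.21-fold between the SD libraries. Psmb9, which takes the place of Psmb6, had 1.21 RPKM in WT vehicle and 0.639 in WT + SD, against 3.01 in G93A vehicle and 3.83 with SD. The folds were 2.48 between the vehicle libraries and 5.99 between the SD libraries, and with a pseudocount of 1 RPKM they were 1.81 and 2.95. For both genes the larger fold of the SD pair goes with a lower WT + SD value and a higher G93A + SD value. Read pairs behind Psmb9 were estimated at 60.4, 33.0, 155 and 200, which makes it the less precise of the pair. Psmb10, which takes the place of Psmb7, had 9.71, 10.4, 11.8 and 12.1 RPKM in the same order, with folds of 1.21 and 1.16. The 4 libraries of Psmb10 keep the genotypes apart, but by less than the threshold.

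Among the PA28 genes, Psme1 passed the threshold in both pairs and Psme2 in 1 pair. Psme1, the alpha subunit of PA28, had 11.2 RPKM in WT vehicle and 8.91 in WT + SD, against 17.8 in G93A vehicle and 18.9 with SD. Its folds were 1.59 between the vehicle libraries and 2.12 between the SD libraries. Psme2, the beta subunit, had 0.634 RPKM in WT vehicle and 0.830 in WT + SD, against 0.959 in G93A vehicle and 0.942 with SD. Its fold was 1.51 between the vehicle libraries, just past the threshold, and 1.13 between the SD libraries. The call in the vehicle pair was lost after median-ratio scaling (1.45) and with a pseudocount of 0.1 RPKM (1.44) or 1 RPKM (1.20). Psme2 is the beta partner of Psme1 in the same ring, yet its RPKM was far lower. Of its 743 windows of 53 bases (the read length), 451 (60.7%) also occur in Psme2b, a near copy on another chromosome. How such reads were assigned is not stated, so that the level of Psme2 is uncertain.

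Counted together, 4 of the 5 inducible and PA28 genes passed 1.5-fold upward in the vehicle pair, where 20.7% of all names tested were higher and 13.5% of those with a mean of at least 1 RPKM. Without the call of Psme2 the count was 3. Between the SD libraries 3 of the 5 were higher, against 23.8% of all names and 16.3% of those with a mean of at least 1 RPKM. None of the 5 was lower in either pair, where 10.5% and 12.8% of all names were and 4.68% and 8.12% of those with a mean of at least 1 RPKM. Their median log2 fold change was 0.67 and 1.08, against 0.060 and 0.064 over all names. These 5 genes are few, and the counts carry no test.

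Of the other 43 members, 1 was higher in the vehicle pair, 2 were higher in the SD pair and 0 were lower in either, where 20.7% and 23.8% of all names were higher and 10.5% and 12.8% lower. Those that passed were Psma8 in both pairs and Psmb11 in the SD pair, both with a mean below 1 RPKM. The other 41 members all lay within 1.5-fold in both genotype pairs. Their folds ran from 0.862 (Psmc5) to 1.34 (Psmb3) between the vehicle libraries and from 0.782 (Psmc5) to 1.45 (Psmg4) between the SD libraries. Their median log2 fold change was 0.11 and 0.12, against 0.051 and 0.048 over the names with a mean of at least 1 RPKM. For all 43 other members it was 0.11 and 0.13, and after median-ratio scaling 0.047 and 0.063.

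**Figure D2:**
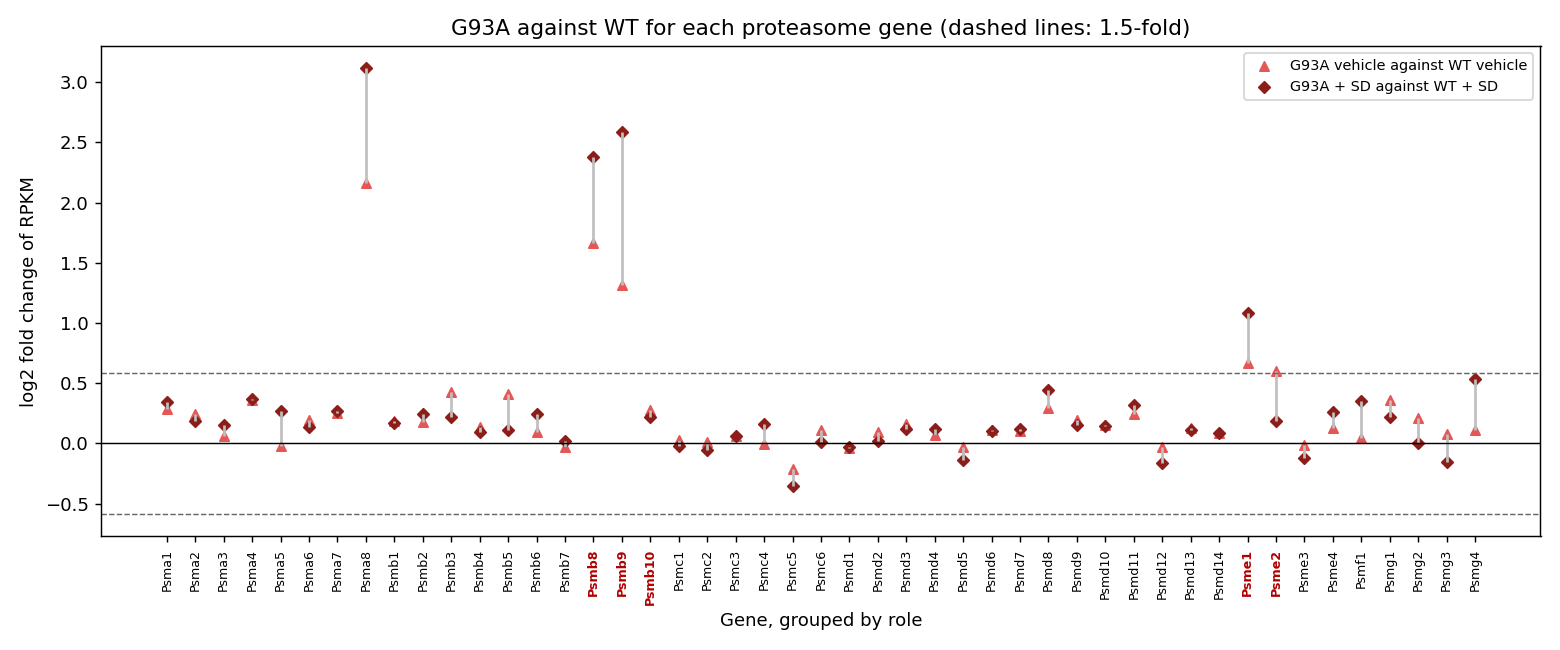
Log2 fold change of RPKM, G93A against WT, for 47 proteasome genes in the vehicle pair (triangles) and the SD pair (diamonds), with dashed lines at 1.5-fold. Psma8, Psmb8, Psmb9 and Psme1 lie above the upper line in both pairs, Psme2 in the vehicle pair only, and no gene lies below the lower line.

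Each inducible gene was set against its counterpart as its share in the RPKM of the pair, a measure of transcripts and not of assembled cores. This share does not depend on how a library is scaled. Psmb8 made up 9.06% of the RPKM of Psmb8 and Psmb5 in WT vehicle and 6.60% in WT + SD, against 19.2% in G93A vehicle and 25.5% with SD. Psmb9 made up 2.74%, 1.57%, 6.17% and 7.46% of its pair with Psmb6 in the same order. Psmb10 made up 9.54%, 10.5%, 11.5% and 11.8% of its pair with Psmb7. Both G93A libraries were thus above both WT libraries for each pair, by more for the first and the second pair. As a ratio, Psmb8 to Psmb5 was 0.0996 in WT vehicle and 0.237 in G93A vehicle, a change of 2.38-fold, and it was 4.83-fold larger in G93A + SD than in WT + SD. The ratio of Psmb9 to Psmb6 was 2.33-fold and 5.05-fold larger in G93A, and that of Psmb10 to Psmb7 was 1.24-fold and 1.14-fold larger. The constitutive gene remained the more abundant of each pair in every library.

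**Figure D3:**
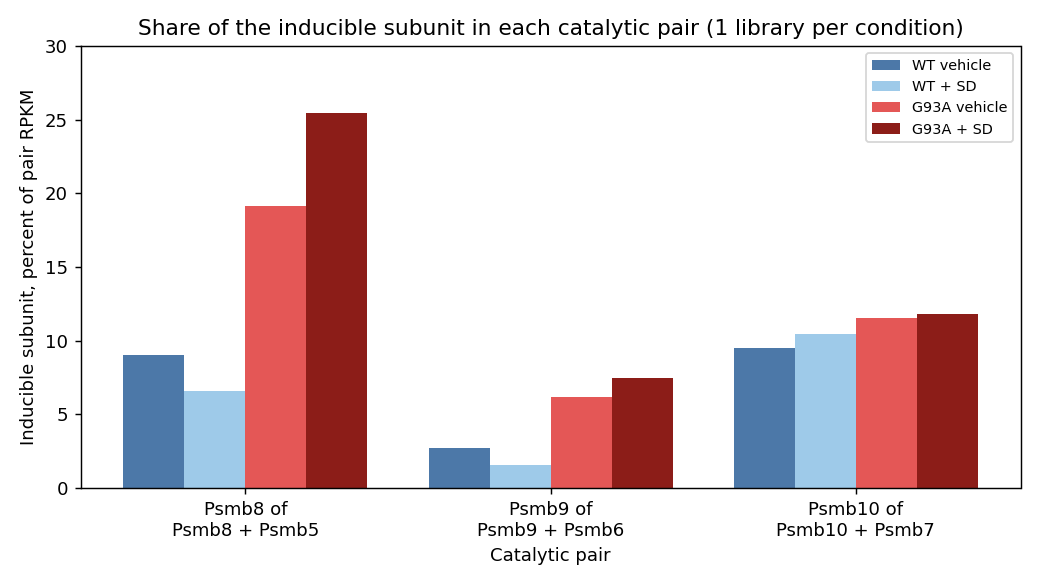
Share of the inducible subunit in the summed RPKM of each catalytic pair (percent, axis from 0), 1 bar per library. For Psmb8 the bars are 9.06% in WT vehicle and 25.5% in G93A + SD, while for Psmb10 all 4 bars lie between 9.54% and 11.8%.

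The constitutive partners themselves were level or slightly higher in G93A. Psmb5, which carries the chymotrypsin-like activity, had 21.3 RPKM in WT vehicle and 20.3 in WT + SD, against 28.4 in G93A vehicle and 21.9 with SD. The G93A vehicle library stood alone, at 1.33-fold the WT vehicle value, and the other libraries lay close together. Of the Psmb5 windows, 54.7% also occur in other genes, mainly in the processed pseudogene Gm3375, so that its level and the share of Psmb8 in the pair are uncertain. Psmb6, with the caspase-like activity, had 43.0, 40.0, 45.8 and 47.5 RPKM. Psmb7, with the trypsin-like activity, had 92.2, 88.8, 90.5 and 90.2 RPKM, and its libraries overlap between genotypes.

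The alpha ring subunits were mostly slightly higher in G93A, all within 1.5-fold apart from Psma8. Psma1 to Psma7 had folds from 0.984 (Psma5) to 1.29 (Psma4) between the vehicle libraries, with 6 of 7 above 1, and from 1.1 (Psma6) to 1.29 (Psma4) between the SD libraries, with 7 of 7 above 1. Psma4 had 19.8 RPKM in WT vehicle and 22.2 in WT + SD, against 25.5 in G93A vehicle and 28.7 with SD. Psma1 had 40.7, 41.2, 49.6 and 52.3 RPKM in the same order. Psma5 had 3.48, 3.84, 3.42 and 4.63 RPKM, so that G93A + SD alone was higher. None of these reached 1.5-fold. Their median log2 fold change was 0.25 and 0.27, against 0.060 and 0.064 over all names. The median over all names was thus itself positive, and counts of folds above 1, here and for other roles, include that offset. The share of all names with a fold above 1 was not counted.

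Psma8, which takes the place of Psma7 in the testis and in meiosis, was at trace level but differed by genotype. It had 0.0953 RPKM in WT vehicle and 0.0579 in WT + SD, against 0.426 in G93A vehicle and 0.501 with SD. The folds were 4.47 between the vehicle libraries and 8.66 between the SD libraries. About 5.94, 3.75, 27.4 and 32.8 read pairs were estimated behind these values. The WT values rest on few reads, and with a pseudocount of 1 RPKM the folds were 1.30 and 1.42, below the threshold. None of its windows occurs in another gene. Psma7 itself had 57.2, 56.6, 68.4 and 68.4 RPKM.

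Psmb11, the thymus form that replaces Psmb5 in cortical epithelial cells, was listed at 0.00640 RPKM in WT vehicle and 0 in WT + SD, against 0.00620 in G93A vehicle and 0.00610 with SD. Each value above 0 corresponds to an estimated 1 read pair, so that its call in the SD pair rests on 1 read pair and no fold is given.

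Of the remaining beta subunits, Psmb3 had the highest and Psmb4 the lowest fold between the vehicle libraries. Psmb3 had 6.18 RPKM in WT vehicle and 6.63 in WT + SD, against 8.30 in G93A vehicle and 7.70 with SD, with folds of 1.34 and 1.16. Psmb4 had 82.1, 80.7, 90.1 and 86.1 RPKM, with folds of 1.1 and 1.07. Psmb1, the most abundant of them, had 81.7, 91.3, 92.7 and 103 RPKM.

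Among the 19S ATPases, which form the ring that unfolds and threads substrates, 4 of 6 had a fold above 1 between the vehicle libraries and 3 of 6 between the SD libraries. Their median fold was 1.02 between the vehicle libraries and 0.996 between the SD libraries. On the log2 scale these medians were 0.023 and -0.0059, against 0.060 and 0.064 over all names. Psmc5, the most abundant member, had 142 RPKM in WT vehicle and 141 in WT + SD, against 123 in G93A vehicle and 110 with SD. Both G93A libraries were below both WT libraries, with folds of 0.862 and 0.782. Psmc6 had the highest fold of the vehicle pair, 1.08, with 45.1, 48.3, 48.7 and 48.7 RPKM.

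Among the 14 Psmd genes, grouped by name and not by place in the mature cap, 11 had a fold above 1 in each genotype pair. Their median log2 fold change was 0.11 and 0.12, against 0.060 and 0.064 over all names. Psmd8, a subunit of the lid, had the highest fold, with 37.2 RPKM in WT vehicle and 35.6 in WT + SD, against 45.5 in G93A vehicle and 48.3 with SD. Its folds were 1.22 and 1.36. Psmd1, a large scaffold of the base, had the lowest fold of the vehicle pair at 0.975, with 48.5, 49.6, 47.3 and 48.7 RPKM. Psmd14, which removes the ubiquitin chain from a bound substrate, had 39.3, 38.9, 41.7 and 41.4 RPKM. Psmd4, a ubiquitin receptor, had 57.0, 53.4, 59.7 and 58.1 RPKM. Psmd12 and Psmd5 were below WT in both G93A libraries, with folds of 0.979 and 0.894 for Psmd12 and of 0.981 and 0.909 for Psmd5.

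Activators outside PA28 alpha and beta did not pass. Psme3, the nuclear PA28 gamma, had 30.5 RPKM in WT vehicle and 30.6 in WT + SD, against 30.2 in G93A vehicle and 28.2 with SD. Psme4, known as PA200, had 10.5, 10.2, 11.5 and 12.2 RPKM. The inhibitor Psmf1 (PI31) had 8.69, 7.12, 8.98 and 9.11 RPKM, with WT + SD lowest. Among the Psmg assembly chaperones, Psmg1 had the highest fold of the vehicle pair, 1.28, with 7.60, 8.45, 9.76 and 9.85 RPKM. Psmg3 had the lowest, 1.06, with 6.75, 7.33, 7.13 and 6.60 RPKM, and its genotypes overlap. Psmg4 had 5.79, 4.91, 6.25 and 7.12 RPKM and the highest fold of the SD pair below the threshold, 1.45.

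Small differences in 1 direction were common over the family, but their number depended on scaling. In the values as deposited, 36 of the 48 members had both G93A libraries above both WT libraries, where 39.7% of all names and 43.7% of names with a mean of at least 1 RPKM did. After division by median-ratio size factors, an alternative chosen after seeing the data, 22 of 48 members did, against 34.1% and 36.5%. Without the inducible and PA28 genes the numbers were 31 and 17 of 43, so that after scaling the share of 39.5% was near the background. In the other direction, 4 members had both G93A libraries below both WT libraries as deposited, Psmc5, Psmd5, Psmd12 and Psme3, where 28% of all names and 32.6% of those with a mean of at least 1 RPKM did. After scaling there were 8, against 33.5% and 39.6%. By role, the genotypes were apart upward after scaling for 6 of 8 alpha genes (Psma8 included) and 6 of 11 beta genes. They were so for 0 of 6 ATPases, 5 of 14 Psmd genes and 3 of 4 activators. Of the Psmg chaperones 2 of 4 were apart upward, and of the inhibitors 0 of 1. Psmb8, Psmb9, Psmb10, Psme1 and Psme2 were apart upward under either scaling.

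SD against vehicle was compared within each genotype. In WT + SD against WT vehicle, 0 of 48 members were higher, where 7.4% of all names and 0.909% of names with a mean of at least 1 RPKM were. In the same comparison 3 members were lower, Psma8, Psmb9 and Psmb11, where 8.82% and 1.36% of the same names were lower. Psma8 and Psmb11 rest on few read pairs, and the count was 1 with a mean of at least 1 RPKM or a pseudocount of 0.1 RPKM, and 0 with a pseudocount of 1 RPKM. Psmb9 was at 0.526 of its WT vehicle level and Psmb8 at 0.675, just short of the threshold of 1.5-fold. Psme1 was at 0.796, while Psme2 was at 1.31 and Psmb10 at 1.07. In G93A + SD against G93A vehicle, 0 members were higher and 0 lower, where 8.89% of all names were higher and 7.46% lower (1.34% and 1.04% above the 1 RPKM minimum). The folds of members with a mean of at least 1 RPKM outside the inducible and PA28 group ran from 0.771 (Psmb5) to 1.35 (Psma5). Psmb9 was at 1.27 and Psmb8 at 1.11 of the G93A vehicle level. The median log2 fold change of the other 43 members was -0.014 in WT and -0.0097 in G93A, against 0.011 and 0.012 over all names.

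**Figure D4:**
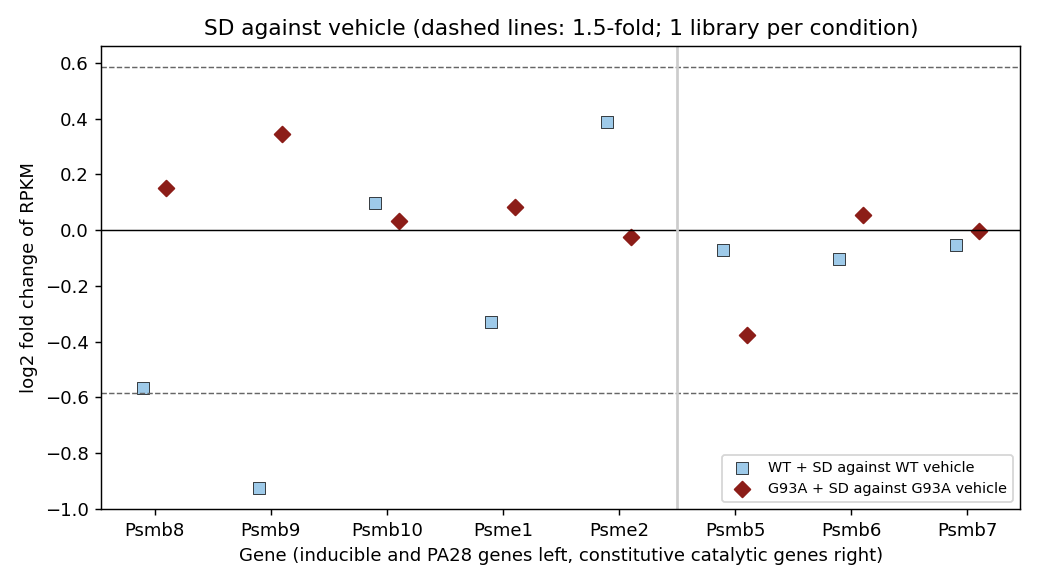
Log2 fold change of RPKM, SD against vehicle, in WT (squares) and in G93A (diamonds) for the inducible and PA28 genes and the constitutive catalytic genes, with dashed lines at 1.5-fold. Psmb9 in WT is the only point past a line, at 0.526 of the vehicle level, and Psmb5 is the lowest of the G93A points at 0.771.

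Levels on the RPKM scale, which is per length, differed widely between genes of the 20S core, whose subunits are used in equal numbers. Means ran from 3.84 RPKM (Psma5) to 92.2 RPKM (Psmb1) over Psma1 to Psma7 and Psmb1 to Psmb7. For 3 of these 14 genes, at least 50% of the transcript windows of 53 bases also occur in another annotated gene on either strand, mostly in pseudogenes. These were Psma5 (53.4%), Psmb3 (53.4%) and Psmb5 (54.7%), with means of 3.84, 7.20 and 23.0 RPKM. The other 11 had means from 7.62 to 92.2 RPKM with a median of 51.5 RPKM. Psma3, the lowest of these 11, shared 21.9% of its windows with pseudogenes, and Psmb7 shared 27.6% with Nek6, the neighbouring gene. Whether shared reads were dropped was not tested. Psmb9 shares 12.3% of its windows with Tap1, whose transcript overlaps it, and Psmb8 shares 5.46% with the antisense gene Gm20496. Whether reads were counted by strand is not given in the sources used here.

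**Figure D5:**
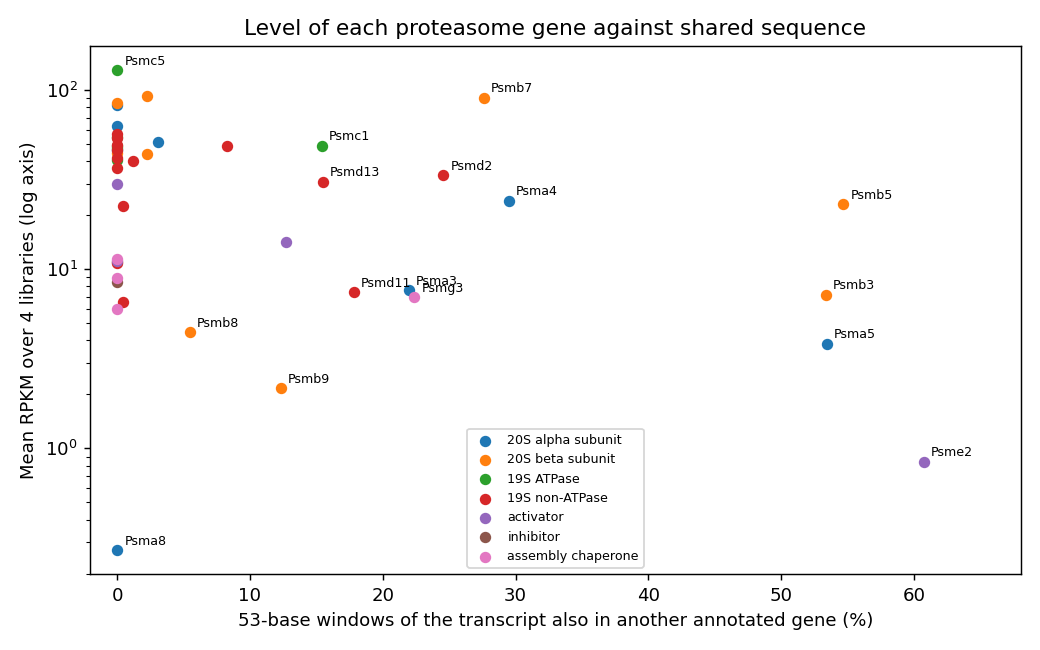
Mean RPKM over the 4 libraries (log axis) against the percent of 53-base transcript windows that also occur in another annotated gene, 1 point per proteasome gene with a mean of at least 0.1 RPKM, coloured by role. The 4 genes to the right of 50%, Psmb5, Psmb3, Psma5 and Psme2, have means of 23.0, 7.20, 3.84 and 0.841 RPKM, while most genes near 0% lie above 10 RPKM.

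Other genes of the pathway were counted from lists. Of 13 partners and assembly factors found in the table, 0 were higher or lower by 1.5-fold in either genotype pair, where 20.7% and 23.8% of all names were higher and 10.5% and 12.8% lower. Of these factors 11 of 13 had a fold below 1 between the vehicle libraries and 8 of 13 between the SD libraries. Their median log2 fold change was -0.14 and -0.25, against 0.060 and 0.064 over all names. Pomp, the chaperone that completes the core, had 94.6 RPKM in WT vehicle and 95.1 in WT + SD, against 114 in G93A vehicle and 111 with SD. Usp14, a deubiquitinase on the cap, had 36.6, 37.6, 33.2 and 31.0 RPKM. Of 12 ubiquitin genes and enzymes, 1 was higher in the vehicle pair and 0 in the SD pair, beside the same shares of all names. The gene called was Rps27a, with 1.75, 1.55, 2.62 and 2.15 RPKM, at the threshold itself. Ubb, which encodes polyubiquitin, had 287, 286, 317 and 307 RPKM.

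Of 17 genes that control proteasome transcription, 8 were higher and 1 was lower in both genotype pairs, where 15.6% of all names were higher and 5.35% lower in both, and 12% and 3.54% of names averaging 1 RPKM or more. Those higher were Nfe2l2, Irf1, Irf8, Irf7, Irf9, Stat3, Nlrc5 and Rela. Irf1, a factor of the interferon response, had 1.35 RPKM in WT vehicle and 1.45 in WT + SD, against 3.32 in G93A vehicle and 3.48 with SD. Nfe2l2, which encodes the antioxidant factor NRF2, had 12.2, 13.3, 33.1 and 38.8 RPKM. Nfe2l1, which encodes the factor NRF1 that restores proteasome genes when the proteasome is inhibited, had 106, 101, 109 and 107 RPKM, with folds of 1.03 and 1.05. The lower gene was Vcp, which extracts ubiquitinated proteins for the proteasome, with 15.7, 15.9, 7.65 and 7.53 RPKM.

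Among 7 genes of peptide transport and presentation, 4 were higher in both genotype pairs, Tap1, Tapbp, B2m and Erap1, and 0 were lower, beside the same 15.6% and 5.35% of all names. Tap1 had 1.17 RPKM in WT vehicle and 0.726 in WT + SD, against 2.69 in G93A vehicle and 2.72 with SD. Like Psmb9, with which it shares transcript sequence, it was lowest in WT + SD, at 0.622 of WT vehicle. Of the 7, Tap1 alone passed 1.5-fold between the WT libraries, where 8.82% of all names were lower. B2m alone passed between the G93A libraries, at 1.59 of the vehicle level, where 8.89% of all names were higher. Of 5 ubiquitin-like genes and enzymes of the interferon response, 3 were higher in both pairs, Isg15, Uba7 and Ube2l6, again beside 15.6% of all names. Isg15 had 1.63, 1.66, 3.52 and 3.53 RPKM.

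Markers of several cell types were summed beside the inducible genes. Of 13 microglial genes, 12 were higher in both genotype pairs and the remaining gene, P2ry12, had folds of 1.05 and 1.21, where 15.6% of all names were higher in both pairs. Their summed level was 214 RPKM in WT vehicle and 192 in WT + SD, against 1353 in G93A vehicle and 1432 with SD, with no marker at 0. The median log2 fold change of the list was 2.32 and 2.72, and 0 of the 13 passed 1.5-fold between SD and vehicle in either genotype, where at most 1.36% of names above the 1 RPKM minimum passed in 1 direction. Of 6 astrocyte genes, 4 were higher in the vehicle pair and 5 in the SD pair, where 20.7% and 23.8% of all names were. Their summed level was 990, 929, 3066 and 3639 RPKM, of which Gfap made up 441, 386, 2269 and 2707 RPKM. The 5 T cell genes found in the table summed to 0.0392, 0.242, 0.246 and 0.449 RPKM, with Cd3e, Cd3d and Cd8a at 0 in WT vehicle. Neuronal markers summed to 1513, 1511, 972 and 827 RPKM over 3 genes, of which Snap25 made up 1268, 1292, 782 and 661 RPKM. Of the rest, Syt1 had folds of 0.773 and 0.889 and Tubb3 of 0.777 and 0.722. Motor neuron markers summed to 55.4, 50.9, 40.0 and 29.3 RPKM over 5 genes. Among them Isl1 had folds of 1.05 and 1.07, and the other motor neuron genes had folds below 1 in both pairs. Oligodendrocyte markers summed to 8157, 8484, 6614 and 6114 RPKM over 4 genes. Endothelial markers summed to 29.4, 26.9, 27.7 and 21.0 RPKM over 4 genes. The part of these cells in the levels of Psmb8, Psmb9 and Psme1 was not tested, and in whole tissue more cells of a type cannot be told apart from more RNA per cell.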

How the data were processed

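Lumbar spinal cord polyA RNA of 4 libraries was measured, 1 for each condition named in the sample labels. Per the labels and methods, the authors used STAR for alignment (GRCm38) and HTSeq for counting over Ensembl genes. The deposited table lists RefSeq transcripts in 23750 rows without a unit. The deposited values were taken as RPKM, since the products of value and transcript length added up to similar totals across libraries. How counts became these values is not given in the sources used here. A further 3 columns hold ratios by the authors and were not used. Rows of a name were averaged, which concerned 4 of the 48 members. A fold of 1.5 on RPKM, the threshold of the study, was applied to all names above 0 in either library, and a name above 0 in 1 library alone counted as called.

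Transcript lengths came from GENCODE M21 for 23026 rows (97.0%). Depth was estimated from the commonest value times length on transcripts over 500 bases, which gave 36800000 and 38300000 read pairs for the WT libraries (vehicle, SD) and 38000000 and 38600000 for the G93A libraries. Only between 22.4% and 23.6% of low values lay within 0.02 of a whole number of such steps, so that no count test or interval was derived. Windows of 53 bases were compared with GENCODE M21 transcripts of other genes on both strands. Promoter windows came from RefSeq on GRCm38.p6. The genes named with values are the inducible and PA28 genes, their counterparts, members past 1.5-fold or below 1 RPKM and the extremes of each role. Psma1, Psma7, Psmb1, Psmd4, Psmd5, Psmd12, Psmd14, Psmg4, Pomp, Usp14, Ubb and Nfe2l1 were named after their values were seen. The members and lists were chosen with earlier results of these data known.

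The alternatives were median-ratio scaling, pseudocounts of 0.1 and 1 RPKM, a mean of at least 1 RPKM, a 2-fold threshold, any row of a name, and the row with the highest mean. Scripts ran in Python 3.11.15 with pandas 2.3.3, numpy 2.4.6 and, for plots, matplotlib 3.10.9. On simulated libraries for G93A vehicle against WT vehicle with 18243 names, the calls took in 200 of 200 genes changed by 2-fold or 3-fold, and 0 of the 10796 unchanged ones that had 200 or more read pairs. The simulation holds counting error only, says nothing of the spread between animals or libraries, and does not cover false calls at the lower read numbers of Psmb8, Psmb9, Psme2 and Psma8 in WT.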

Additional observations from a re-analysis of the deposited data

Results flagged for a closer look

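For 3 members, SD went with a lower value in WT and a higher value in G93A, and the folds were at least 1.5 times apart. None of these differences was tested, since each rests on 4 single libraries. Psmb9 was at 0.526 of the vehicle level in WT and at 1.27 in G93A, a quotient of 2.41. Psma8 was at 0.607 and 1.18, a quotient of 1.94, on few estimated read pairs. Psmb8 was at 0.675 and 1.11, a quotient of 1.65. Over names with a mean of at least 1 RPKM and above 0 in every library, 3.74% went in opposite ways by as much. On that base, which leaves out Psma8, it was 2 of 45 members, a share near that of all names.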

How the results depend on the processing

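No paired analysis was possible because the groups compared share fewer than 2 replicate numbers. With 1 library per condition, no library could be left out. Median-ratio scaling and the choice of rows left every count of calls within 1.5 times of its value. Scaling took the median log2 fold change of the other 43 members from 0.11 to 0.047 in the vehicle pair, from 0.13 to 0.063 in the SD pair, from -0.014 to -0.024 for SD in WT and from -0.0097 to -0.022 for SD in G93A. It took members with both G93A libraries above both WT libraries from 36 to 22, and from 31 to 17 without the inducible and PA28 genes, and members below from 4 to 8 in either set. With a 2-fold threshold, 2 of the 5 inducible and PA28 genes were higher in the vehicle pair. The 1 member lower in WT + SD was then Psmb11, on 1 estimated read pair, and Psmb9 at 0.526 did not pass. For the other members, a pseudocount of 1 RPKM or a mean of at least 1 RPKM left 0 higher in either genotype pair, and a pseudocount of 0.1 RPKM left 1 in the SD pair. Members lower in WT + SD numbered 1 (Psmb9) with a pseudocount of 0.1 RPKM or a mean of at least 1 RPKM. With a pseudocount of 1 RPKM they numbered 0. The median log2 fold change of the inducible and PA28 genes in the SD pair was 1.73 with a mean of at least 1 RPKM, which leaves out Psme2. A pseudocount of 1 RPKM gave ratios of 0.114 for Psmb8 to Psmb5 in WT + SD, and of 0.0503 and 0.0400 for Psmb9 to Psmb6 in WT vehicle and WT + SD. The fold of Psme2 in the vehicle pair was 1.45 after scaling. Its fold between SD and vehicle in G93A, within the threshold, was 0.982, and 1.01 from the row with the highest mean. Depth limits Psma8, Psmb11 and Psme2 most.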
